A study of Harpegnathos saltator with 12 samples.

Results

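Wide binding regions of the transcription factor Kr-h1 in the ant brain are described here: the peaks at least 1500 bp wide that did not belong to a cluster of peaks. Members were chosen from the authors' list of 5033 peaks. Successive peaks on a scaffold were joined while the gap between them was under 5 kb, and a peak of 1500 bp or more was kept unless its joined group held 3 or more peaks. This gave 321 peaks, or 6.38% of the list. They lay on 162 of the 393 scaffolds with a peak. The list has 377 peaks of this width (7.49%), and the other 56 lay in groups of 3 or more.

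The zinc-finger protein Kr-h1, short for Krüppel homolog 1, is best known as an early response gene of juvenile hormone. In other insects, such as the fruit fly and the flour beetle, juvenile hormone acting through its receptor Methoprene-tolerant induces Kr-h1, which holds back metamorphosis in the larva. Kr-h1 remains expressed in adult insects, where it has been linked to reproduction and, in social insects, to differences between castes in the brain. In chromatin immunoprecipitation followed by sequencing (ChIP-seq), DNA bound by the factor is pulled down with an antibody. A peak is a stretch where the pulled-down DNA is more abundant than the peak caller's background, and a wide peak is a long such stretch.

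The study made 3 Kr-h1 ChIP libraries from gamergates and 3 from workers, with 3 input chromatin libraries of gamergates and 3 of workers, from the central brain of Harpegnathos saltator. Gamergates are workers that have become egg-laying reproductives, and here they were recognised by mature oocytes. Callow females were 5 days old when 25 of them were placed with 3 males in a nest without queens or gamergates. The colony was collected 120 days later. Collections on days 10 and 20 are also mentioned in the labels, which do not give the day for each library, so the age of each sample is not given. The labels name no genetic change and no drug in any group. The central brain holds many kinds of neurons and glia, so a peak is a signal summed over them. The antibody was custom-made, and 13 cycles of PCR were used for the Kr-h1 libraries, against 5 for input.

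All values below come from the 1 peak list of the whole series. Each peak has a scaffold, a start, an end and 1 fold enrichment computed by the authors, taken here as a linear ratio. No value belongs to a caste, a library or a replicate, so gamergates were not compared with workers here, no replicate error can be given, and the depth is unknown. Width and fold come from the same peak call. The differences in fold between wide and narrower peaks are therefore given as descriptions of the list, with no test. Positions are as the authors' list gives them, and the sources used here do not name the assembly. Genome sequence and gene positions of that assembly were not used here, and no gene is named for any peak.

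The wide peaks were mostly not far above the width that defined them. Their median width was 1819 bp, with quartiles of 1649 and 2161 bp. A width of 2000 bp was reached by 109 of the 321, 2500 bp by 39, 3000 bp by 17 and 4000 bp by 4. Together they covered 639 kb, which is 15.7% of the sequence under all peaks, from 6.38% of the peaks. The 3 members closest to the limit were 1500, 1503 and 1505 bp wide, with folds of 8.32, 5.21 and 5.16. Just outside it were peaks of 1499, 1498 and 1497 bp with folds of 23.6, 3.33 and 21.4. The last of these was also in a group of 7 peaks. The widths ran through the limit without a break, so the limit marks no natural boundary in the list.

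Enrichment ranged from the floor of the list to near its upper end. The lowest fold among the wide peaks was 3.01, the median was 7.86 and the highest was 57.9, against 3.00, 4.64 and 96.2 for the other 4712 peaks. A fold of 10 was reached by 125 wide peaks (38.9%), against 18.8% of all peaks. A fold of 20 was reached by 47 (14.6%), against 7.07% of all peaks. Folds under 4 were held by 55 wide peaks (17.1%), against 35.6% of all peaks. The wide peaks thus had a larger share of high folds than the list as a whole, and still 85 of the 321 lay below the list's median fold of 4.73.

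**Figure D1:**
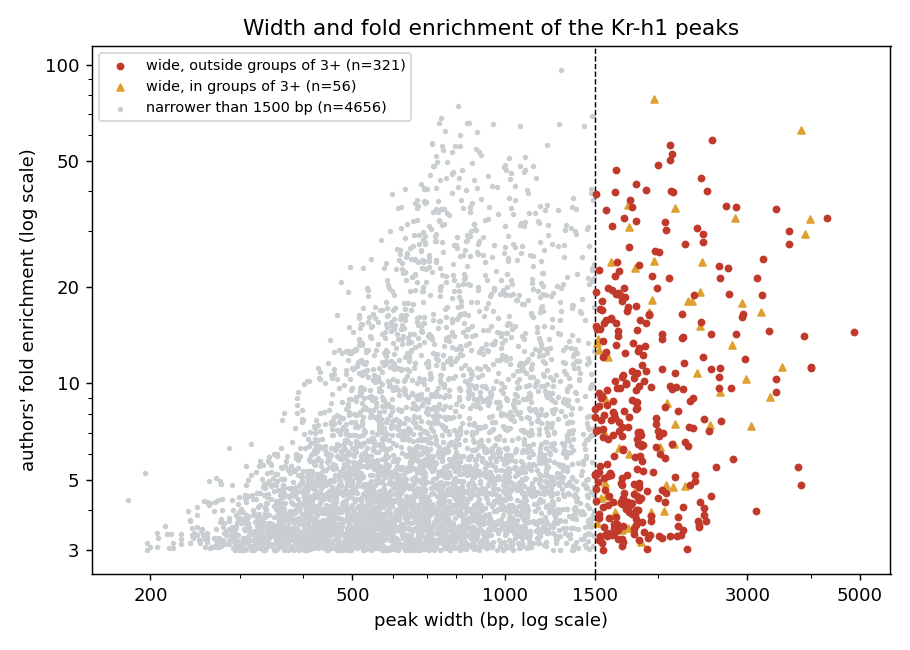
Fold enrichment (authors' values, log scale) against peak width in bp (log scale) for all 5033 peaks; each point is 1 peak and the dashed line is the limit of 1500 bp. The 321 wide peaks outside groups (red) span folds of 3.01 to 57.9, and the list's highest fold, 96.2, belongs to a narrower peak.

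The 2 sets most like these peaks share either their width or their lack of close neighbours. The 56 wide peaks inside groups of 3 or more had a median fold of 9.88 and reached 77.7 at most, and 28 of them (50.0%) reached a fold of 10. The 4088 narrower peaks outside such groups had a median fold of 4.58, and 686 of them (16.8%) reached a fold of 10. Among all peaks outside groups, wide peaks stood at higher folds than narrower ones over most of the range. A fold of 50 was reached by 4 wide peaks outside groups (1.25%), against 23 of the narrower peaks (0.563%). It was reached by 2 of the 56 wide peaks in groups (3.57%) and by 34 of all 5033 peaks (0.676%). The counts of wide peaks here are very small. The highest fold was 57.9 among the wide peaks outside groups, against 96.2 among the far more numerous narrower peaks.

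**Figure D2:**
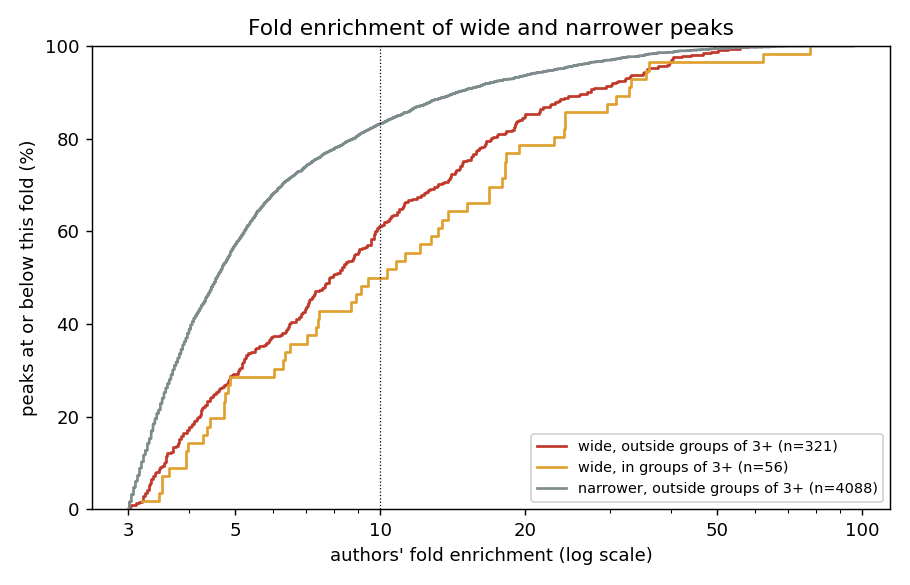
Share of peaks (%) at or below each fold enrichment (log scale) for the 321 wide peaks outside groups, the 56 wide peaks in groups of 3 or more and the 4088 narrower peaks outside groups; the dotted line marks a fold of 10. The curve of the wide peaks outside groups lies to the right of the narrower peaks over most of the range, with medians of 7.86 and 4.58.

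Wide peaks made up a different share of the list at different strengths. Of the 1794 peaks with a fold of 3 to 4, 55 (3.07%) were wide peaks outside groups. The share was 4.18% at folds of 4 to 5 (39 of 933 peaks) and 7.50% at 5 to 10 (102 of 1360). It was 13.2% at 10 to 20 (78 of 590), 10.7% at 20 to 30 (19 of 178) and 16.7% at 30 to 50 (24 of 144). Of the 34 peaks of 50 or more, 4 were wide peaks outside groups (11.8%). The share was thus larger above a fold of 10 than below it, with no steady climb above 10. The 20 to 30 band and the top band hold few wide peaks.

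Among the wide peaks themselves, width and fold went together only loosely up to 2500 bp. The 212 members from 1500 up to 2000 bp had a median fold of 7.17, and 33.5% of them reached a fold of 10. For the 70 members from 2000 up to 2500 bp these values were 7.52 and 37.1%. The 39 members of 2500 bp or more stood apart from both bands, with a median fold of 14.3 and 71.8% at a fold of 10 or more. Only 1 of those 39 had a fold under 4, against 54 of the 282 narrower members. Across the 321 members width and fold had a rank correlation of 0.18, and Pearson's r of the log2 values was 0.23. Among the 4088 narrower peaks outside groups these correlations were 0.34 and 0.33, and among the 56 wide peaks in groups of 3 or more 0.39 and 0.41. The sets differ in size and in their range of widths, so these correlations are not like for like. Width and fold of each point come from 1 peak call on the same libraries, so the correlations describe the list.

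**Figure D3:**
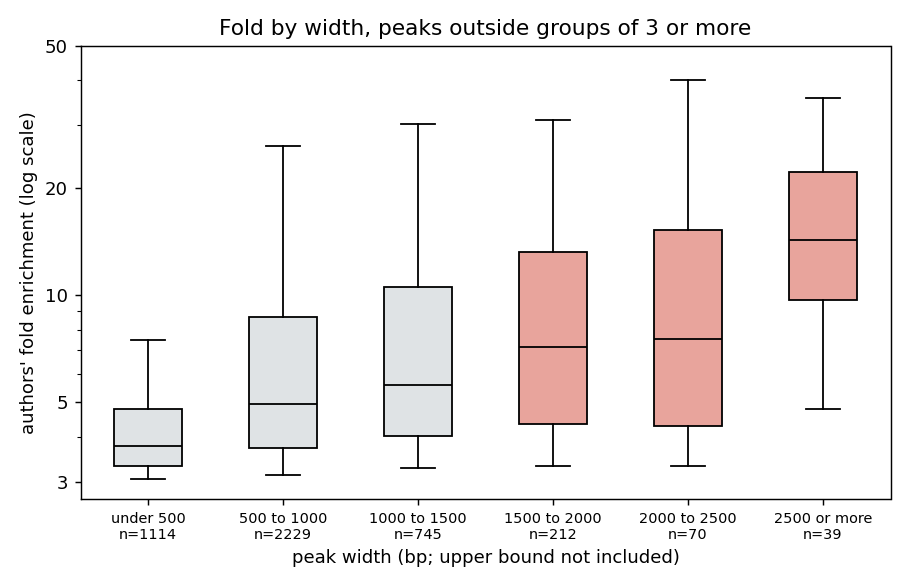
Fold enrichment (log scale) by peak width in bp for the peaks outside groups of 3 or more; boxes run from the 25th to the 75th percentile with a line at the median, and whiskers from the 5th to the 95th percentile. Red boxes are the wide peaks; their medians are 7.17, 7.52 and 14.3, and grey boxes are narrower peaks with medians of 3.77, 4.94 and 5.60.

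The 10 widest members ran from 3417 to 4872 bp and had folds of 4.79 to 33.0. The widest peak of the whole list was among them: it spanned 4872 bp on scaffold124, 232132 to 237004, and its fold was 14.5. Second in width was a peak of 4307 bp on scaffold515, 1036719 to 1041026, whose fold was 33.0. Both are well above the list's median fold, and the second ranked 138 by fold among the 5033 peaks. Peaks of 4009 bp on scaffold182, 1948969 to 1952978, and of 4007 bp on scaffold174, 848708 to 852715, had folds of 11.3 and 11.2. Scaffold36 held a peak of 3883 bp from 788873 to 792756 with a fold of 14.04. Of these very wide peaks, 8 of the 10 reached a fold of 10, and the pair that did not lay on scaffold104.

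Scaffold104 held 4 wide peaks, each with no other peak within 5 kb, and their order by width was the reverse of their order by fold. Of the 39 members of 2500 bp or more in the list, 71.8% reached a fold of 10, so the first and second peaks here were in the minority. From low to high coordinate, the first lay from 101139 to 104974 (3835 bp) with a fold of 4.79 and the second from 120049 to 123828 (3779 bp) with a fold of 5.48. The third, from 205108 to 207219, was narrower at 2111 bp and had a fold of 50.1. The last, from 249656 to 251817, had a fold of 10.8 over 2161 bp. The narrowest of the 4 was therefore the strongest, and it was 1 of the 4 members that reached a fold of 50. The peak from 249656 to 251817 and the scaffold were singled out after their values were seen.

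The 10 widest also included a peak of 3631 bp on scaffold7, 976180 to 979811, with a fold of 27.4, one of 3625 bp on scaffold320, 118020 to 121645, with a fold of 30.1, and one of 3417 bp on scaffold386, 178780 to 182197, with a fold of 10.3. The scaffold386 peak was the only peak listed for its scaffold. It was the single wide peak of the list in that position.

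The 10 members of highest enrichment had folds of 40.2 to 57.9 and widths of 1650 to 2551 bp. Their median width was 2110 bp, against 1819 bp for all 321 members. The 10 strongest shared no member with the 10 widest. Each list holds only 10 of the 321 members, so little overlap would arise in any case, and its absence says little. The strongest was 2551 bp wide, lay on scaffold77 at 224911 to 227462, had a fold of 57.9 and ranked 17 by fold in the list. The next were scaffold604 from 643539 to 645648 with a fold of 55.8, scaffold171 from 1698213 to 1700347 with a fold of 52.6, and the scaffold104 peak with a fold of 50.1. These 4 peaks were 2109 to 2551 bp wide. The scaffold171 peak was remote, 102924 bp from the nearest other peak.

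The other members of the 10 strongest were on scaffold469 from 433011 to 435010 with a fold of 48.5, scaffold833 from 425112 to 426762 with a fold of 46.6, and scaffold79 from 488297 to 490728 with a fold of 44.1. Scaffold111 held one from 363087 to 364895 with a fold of 42.3, scaffold58 from 655630 to 657527 with a fold of 40.4, and scaffold3 from 199795 to 202292 with a fold of 40.2. The 10 strongest fell on 10 scaffolds, 6 of them solitary and 4 with a single close partner. The 10 widest fell on 9 scaffolds, and the 10 weakest members of 2000 bp or more on 10, so this spread was not particular to the strongest. How the scaffolds are placed relative to each other in the genome is not known here.

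At the other end, some peaks were wide and weak. The 10 weakest of the members of 2000 bp or more had folds of 3.04 to 3.60 and widths of 2010 to 2404 bp. The weakest of them was 2277 bp wide, lay on scaffold359 at 31671 to 33948, had a fold of 3.04 and ranked 4958 by fold in the list. Scaffold812 held one from 53000 to 55033 with a fold of 3.28. The same fold of 3.31 was listed for 3 peaks on different scaffolds: scaffold121 from 1097481 to 1099589, scaffold127 from 165172 to 167348 and scaffold161 from 199196 to 201206. These peaks were as wide as several of the strongest members and had folds near the floor of the list.

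The others of these wide and weak peaks were on scaffold45 from 1658402 to 1660622 with a fold of 3.34, scaffold779 from 748337 to 750577 with a fold of 3.47 and scaffold58 from 299391 to 301795 with a fold of 3.56. Scaffold174 held one from 590469 to 592657 with a fold of 3.59, and scaffold224 held one from 1090924 to 1093328 with a fold of 3.60. Of the 10, 8 were solitary and 2 had a close partner, and none lay on a scaffold with another of the 10.

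Most wide peaks stood alone. No other peak lay within 5 kb of 234 of the 321 (72.9%), against 62.7% of all peaks. The rule left out every wide peak in a larger group, so these shares are not like for like. Among the narrower peaks outside groups of 3 or more, chosen by the same spacing rule, the share was 71.5%. With no group left out it was 62.1% of all wide peaks, close to the 62.7% of all peaks. The 234 solitary members had a median fold of 8.27 at a median width of 1819.5 bp. For the 87 members with 1 close partner the medians were 6.90 and 1806 bp. A fold of 10 was reached by 39.7% of the solitary and 36.8% of the partnered members, and 2500 bp by 12.4% and 11.5%. The solitary and the partnered members were thus similar in width and in the share of high folds, and the solitary ones had the higher median fold.

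Solitary wide peaks can be set beside the 2921 narrower peaks that were also solitary, since the same spacing rule applies to both. The distance to the nearest other peak had a median of 16.5 kb for the solitary wide peaks, with quartiles of 9.49 and 30.7 kb, against a median of 18.8 kb and quartiles of 9.62 and 40.1 kb for the solitary narrower peaks. It exceeded 100 kb for 7 wide peaks (3.00%), against 226 narrower ones (7.88%). The medians were thus similar, and the share of very remote peaks was smaller among the wide peaks; this difference was not tested. The nearest neighbour of a solitary wide peak was itself 1500 bp or wider in 20 of 233 cases (8.58%), against 220 of 2868 (7.67%) for the solitary narrower peaks. The neighbours' median fold was 4.64 beside wide peaks, against 4.70 beside narrower ones. The nearest neighbours of wide peaks were therefore about as wide and as strong as those of narrower peaks.

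The 5 most remote members with a neighbour on their scaffold differed widely in strength. The most remote lay on scaffold639 from 532231 to 534308, with a fold of 30.2, and its nearest neighbour was 293375 bp away. Next were scaffold119 from 91955 to 93607, with a fold of 3.83 and 187892 bp to its neighbour, and scaffold432 from 16165 to 17984, with a fold of 8.74 and 178441 bp. Scaffold12 held one from 1406446 to 1408025 with a fold of 15.8, at 134616 bp, and scaffold36 one from 1017554 to 1019407 with a fold of 6.87, at 129755 bp. Of these 5, 2 reached a fold of 10, on scaffold639 and scaffold12. That share is similar to the 39.7% of all solitary members, against 18.8% of all peaks. All but the scaffold639 peak were the first or last peak of their scaffold, so their distance is known on 1 side only.

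The 87 partnered members formed 79 pairs: 71 of a wide and a narrower peak and 8 of 2 wide peaks. In the 71 mixed pairs the wide peaks had a median fold of 6.90, and their narrower partners had a median fold of 5.18 at a median width of 716 bp. The wide peak had the higher fold in 45 of the 71 pairs (63.4%) and the narrower one in 26. In the 547 pairs of narrower peaks of unequal width, the wider had the higher fold in 339 (62.0%). The share was about the same in both kinds of pair. The gap within mixed pairs had a median of 1133 bp, against 1790.5 bp in pairs of narrower peaks. Gaps under 500 bp made up 18.3% of the mixed pairs (13 of 71), against 19.5% of pairs of narrower peaks.

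**Figure D4:**
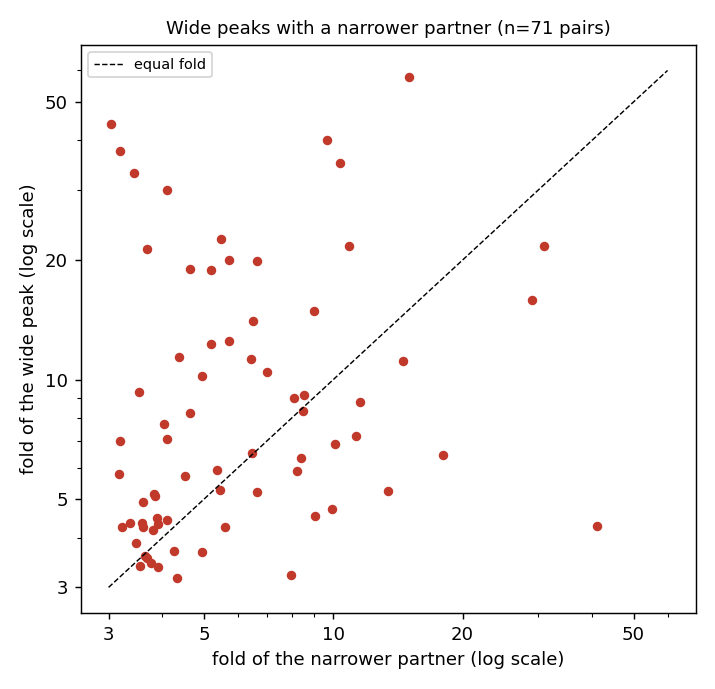
Fold enrichment of the wide peak against that of its narrower partner in the 71 mixed pairs (both log scales); each point is 1 pair and the dashed line marks equal fold. In 45 pairs the point lies above the line, and the points spread far to both sides of it.

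Some mixed pairs were very unequal. The wide peak had at least 2 times the fold of its partner in 20 of the 71, and the partner had at least 2 times that of the wide peak in 5. The extreme on the first side was on scaffold79, where the wide peak with a fold of 44.1 adjoined a peak of 724 bp, from 486848 to 487572, with a fold of 3.04. On the second side, a wide peak on scaffold285 from 420847 to 422358 had a fold of 4.28, and its partner of 731 bp, from 426487 to 427218, had a fold of 41.2. Either peak of a mixed pair could thus be by far the stronger one. These extremes were chosen after their values were seen.

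The 8 pairs in which both peaks were wide had gaps of 369 to 3371 bp. The pair with the largest summed width was on scaffold124, where the widest peak of the list, with a fold of 14.5, lay 424 bp from a peak of 1699 bp, from 230009 to 231708, with a fold of 5.06. The pair on scaffold114 came next: the peak at 185351 to 187899 had a fold of 14.3, and its partner at 181995 to 184487, 864 bp away, had 3.71. Those peaks were 2548 and 2492 bp wide, so peaks of almost equal width lay side by side with unequal folds. On scaffold58 a pair 3243 bp apart had folds of 3.56 (2404 bp) and 3.62 (1642 bp), both near the floor.

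The scaffold63 pair had folds of 20.0 (165696 to 167687) and 9.82 (162835 to 164672). On scaffold31 the folds were 26.0 (970872 to 972842) and 5.91 (973396 to 975243), with a gap of 554 bp. In 5 of the 8 pairs the wider peak had the higher fold. The largest inversion was on scaffold519, where the wider peak had a fold of 4.36 and the other, from 517390 to 519113, had a fold of 18.7.

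Wide peaks occurred on 162 scaffolds, and 77 of these held 1 each. Another 44 held 2, 22 held 3, 11 held 4 and 8 held 5 or more. The 99 scaffolds with at least 20 peaks held 216 of the 321 wide peaks (67.3%) and 63.2% of all peaks. These pooled shares were similar, but single scaffolds of this size differed in the share of their peaks that were wide and outside groups. It was 21.9% on scaffold114 (7 of 32 peaks), the highest of these, and 2.94% on scaffold38 (2 of 68), against 6.38% over the list. Lower shares also occurred, such as 2.13% on scaffold252 (1 of 47). This spread was not tested. Across the 393 scaffolds, the number of wide peaks and of all peaks had a rank correlation of 0.68 and a Pearson's r of 0.72. The wide peaks are part of the total, and longer scaffolds have room for more of both. Of the 99 scaffolds, 15 held no wide peak outside a group, among them scaffold128 and scaffold534 with 30 peaks each.

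Scaffold58 and scaffold114 held the most, 7 each, out of 68 and 32 peaks. On scaffold58 the folds of the 7 wide peaks, in order of position, were 5.79, 3.62, 3.56, 40.4, 13.2, 21.4 and 7.80. On scaffold114 they were 7.20, 14.8, 3.71, 14.3, 5.85, 39.99 and 3.68. Both scaffolds thus held wide peaks from near the floor of the list up to a fold of about 40. Scaffold8 and scaffold7 held 6 each, out of 61 and 49 peaks, with folds of 3.19 to 40.1 and 3.56 to 27.4.

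A tie at 5 wide peaks joined scaffold10, scaffold156, scaffold160 and scaffold676. Scaffold156 had folds of 10.8 to 39.8 for its 5 wide peaks, so all of them passed a fold of 10, and scaffold10 had folds of 7.32 to 17.4. Scaffold160 was lower, with folds of 3.16 to 10.4, and scaffold676 had folds of 5.09 to 37.7. On each of these 8 scaffolds the strongest wide peak had more than 2 times the fold of the weakest.

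**Figure D5:**
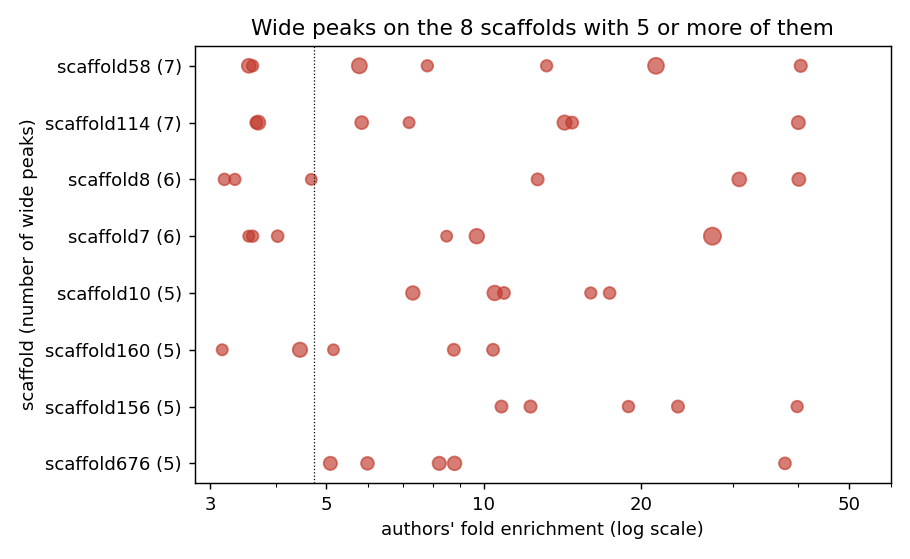
Fold enrichment (log scale) of each wide peak on the 8 scaffolds with 5 or more of them; each point is 1 peak, its area grows with width, and the dotted line is the list's median fold of 4.73. Scaffold156, scaffold10 and scaffold676 have all their points to the right of the line, while scaffold58, scaffold114, scaffold8, scaffold7 and scaffold160 have points on both sides.

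Successive wide peaks on the same scaffold were mostly far apart. Among the 159 such steps the median gap was 162 kb, with 20 gaps under 20 kb and 40 under 50 kb. The higher fold of 2 successive wide peaks was at least 2 times the lower in 92 of the 159 steps (57.9%) and at least 5 times in 23. The median ratio of higher to lower fold was 2.22 over all steps and 2.75 over the 20 steps under 20 kb. For any 2 of the 321 wide peaks, wherever they lay, the median ratio was 2.07 and 52.1% of combinations reached 2 times. Over all steps, successive wide peaks were thus about as unequal as any 2 wide peaks. Of the 20 steps under 20 kb, 15 reached 2 times, a higher share that was not tested. For successive peaks of the whole list, which lie closer together and mostly have low folds, the median ratio was 1.56 and 35.0% reached 2 times.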

How the data were processed

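The submitters' processing notes name MACS2 2.1.1.20160309, Bowtie2 2.2.6, SAMtools, Trimmomatic and bcl2fastq. The sources used here do not give their settings, the genome build, the peak threshold, the handling of duplicate reads or any pooling. A single peak list was deposited by the authors. Per the file headers, its columns are the scaffold, the start and end, and the fold enrichment. The fold is taken here as a linear ratio over the peak caller's background. The lowest fold was 3.00. Peaks did not overlap, and the smallest gap was 182 bp. Whether starts count from 0 or 1 is not given, so a width may be off by 1 bp.

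Width was end minus start. Members, groups and summaries were obtained in Python 3.11.15 with pandas 2.3.3, numpy 2.4.6 and scipy 1.17.1. The choice of members was tested on simulated data. The members and the lists were chosen with earlier results of these data known. Named peaks are the 10 widest, the 10 of highest fold, the 10 of lowest fold among those of 2000 bp or more, the 5 most remote, the 5 widest pairs of wide peaks and the 5 scaffolds with most, extended to 8 by a tie. The comparison of gamergates with workers, which needs values per sample, was not run. Bands of width and fold, spacing and pairs were chosen after seeing the data.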

Additional observations from a re-analysis of the deposited data

How the results depend on the processing

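No paired analysis was possible because no peak has a value for a single library, and no replicate could be left out. The values that follow were set against the 95% binomial interval of the value given above (counts against a factor of 1.5), which covers counting of peaks only. Lowering the width limit by 250 bp gave 561 peaks, and a limit of 2000 bp gave 109. With the limit of 2000 bp the median fold was 9.85 and 49.5% reached a fold of 10. When peaks under the list's median fold were dropped first, the median fold was 10.6, 52.9% reached a fold of 10 and 78.0% had no neighbour within 5 kb, as that list's construction sets. The share with no neighbour was also 66.5% when peaks were joined at gaps under 2 kb, 62.1% with no group left out and, by construction, 100% when pairs were left out. The number of members moved by less than a factor of 1.5 in the other 7 of 9 settings; the median fold and the share at a fold of 10 stayed inside their intervals in 7 of 9, and the share with no neighbour in 5 of 9. Merging peaks under 500 bp apart gave 448 wide regions with a median fold of 7.86. Each merged region took the highest fold among its peaks and a width that included the gaps between them, so this median is not like for like. Counting width as end minus start plus 1, a setting chosen after seeing the data, gave 322. What depth limits is not known without read counts.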

Other observations

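The fold values are not spread evenly: most lie within 0.00002 of a whole multiple of a fitted step of 0.0301325. This held for 284 of the 321 wide peaks outside groups (88.5%), against 83.6% of the other 4712 peaks. The 37 wide peaks off the step had a median fold of 4.43, and those on it had a median of 8.36. Among the other 4712 peaks these medians were 4.41 and 4.70. Of the 56 wide peaks in groups of 3 or more, 55 were on the step. The part that these values play in the folds of wide peaks was not tested.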
